A study of Homo sapiens with 7 samples.

Results

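Complex I, NADH:ubiquinone oxidoreductase, is described here through the 46 protein-coding genes, of 19974 on chromosomes 1 to 22 and X, whose RefSeq symbol begins with NDUFA, NDUFB, NDUFC, NDUFS, NDUFV or NDUFAF. The 46 members comprised 7 core subunits, 9 accessory subunits of the matrix arm, 9 of the proximal membrane arm, 11 of the distal membrane arm, the acyl carrier NDUFAB1, 8 assembly factors and NDUFC2-KCTD14, a readthrough gene taken by its name. NDUFC2-KCTD14 shares an end with NDUFC2, so one region was counted for both. The assay was ATAC-seq, which maps accessible chromatin by the sites where the transposase Tn5 can insert adapters. The cells were neurons made from LUHMES, an immortalized line of human embryonic midbrain origin. All cells had the wild-type genotype and were differentiated for 6 days with tetracycline, dibutyryl cAMP and GDNF. The 4 treated libraries, numbered 6, 7, 8 and 9 after their differentiation, received antimycin A at 25 µM, which blocks complex III, together with oligomycin at 10 µM, which blocks the ATP synthase, for 8 hours. The 3 vehicle libraries, from differentiations 6, 7 and 8, received DMSO. Neither drug has complex I as its target. The comparison asks whether promoters of complex I genes are open to the same extent in both conditions.

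Complex I is the first enzyme of the respiratory chain: it passes electrons from NADH to ubiquinone and pumps protons across the inner mitochondrial membrane. Its matrix arm holds the flavin and the iron–sulfur clusters, its membrane arm holds the proton pumps, and accessory subunits surround both. Dopaminergic neurons of the midbrain are known for their sensitivity to complex I inhibitors such as MPP+ and rotenone. The remaining core subunits are encoded by mitochondrial DNA, on which the deposited lists hold no region, and were not analysed here.

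The data are 7 lists of accessible regions, of 188516, 248900, 55533 and 53063 regions in treated 6, 7, 8 and 9 and of 53398, 32828 and 159902 in vehicle 6, 7 and 8. Read depth is unknown. A gene was called open in a library when a region lay within 1000 bp of either end of the gene. Because the lists differ in length, the count was also made in equal-size lists of the 32828 regions with the highest fold enrichment, the ratio of signal to background at a region's summit. Of 8 markers of dopaminergic neurons, 4 to 8 were open per deposited list, with TH open in 3 treated and 0 vehicle lists and SLC18A2 in 4 and 1. In the equal-size lists neither of these was open in any library. EN1, NR4A2, PITX3 and SLC6A3 were open in all 7 deposited lists. DDC and LMX1B were each open in 1 treated and 0 vehicle deposited lists and in no equal-size list. At equal size 3 to 4 of the 8 dopaminergic markers were open per library. Of 8 general neuron markers, 7 or 8 were open in each deposited list.

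Nearly all complex I genes were open in both conditions. In the deposited lists 45 of 46 members were open in each of treated 6, 7, 8 and 9, against 40, 39 and 45 in vehicle 6, 7 and 8. Vehicle 8 thus equalled the treated libraries, and the difference came from vehicle 6 and 7. In the equal-size lists the counts were 42, 45, 41 and 42 against 40, 39 and 40. Each treated library thus stood above each vehicle library. For treated 8 this rested on NDUFB10, whose fold of 4.41 equalled the limit of that list. NDUFA10 and NDUFS6, with the same fold in treated 8, fell outside the list. The separation was lost when the summit itself had to lie in the window. The counts were then 39, 41, 39 and 39 against 39, 38 and 36, a difference of 1.83. With any base of a region in the window, the means were 42.5 ± 1.73 (SD, n = 4) and 39.7 ± 0.577 (SD, n = 3), a difference of 2.83 genes. In the deposited lists they were 45.0 ± 0 and 41.3 ± 3.21, a difference of 3.67 genes that was close to the SD of the vehicle libraries.

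The mean share open over all protein-coding genes differed in the same direction. In the equal-size lists 62.4% ± 1.92 of all genes were open in the treated libraries and 56.1% ± 2.57 in the vehicle libraries, which are 6.31 percentage points apart. For the members the shares were 92.4% and 86.2%, a difference of 6.16 percentage points, which is close to that of genes as a whole. The members had less room to rise, with 86.2% open in the vehicle libraries against 56.1% of all genes. The level of the members was high: 38 of 46 (82.6%) were open in all 7 deposited lists, where the background over all genes was 49.8%. In the equal-size lists 36 (78.3%) were open in all 7, against a background of 46.5%. Other mitochondrial gene lists also stood above the background of the deposited lists. Their shares open in all 7 were 66.7% for complex III, 77.3% for the ATP synthase and 71.4% for mitochondrial ribosomal proteins. For complex I assembly genes with other names the share was 94.4%.

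**Figure D1:**
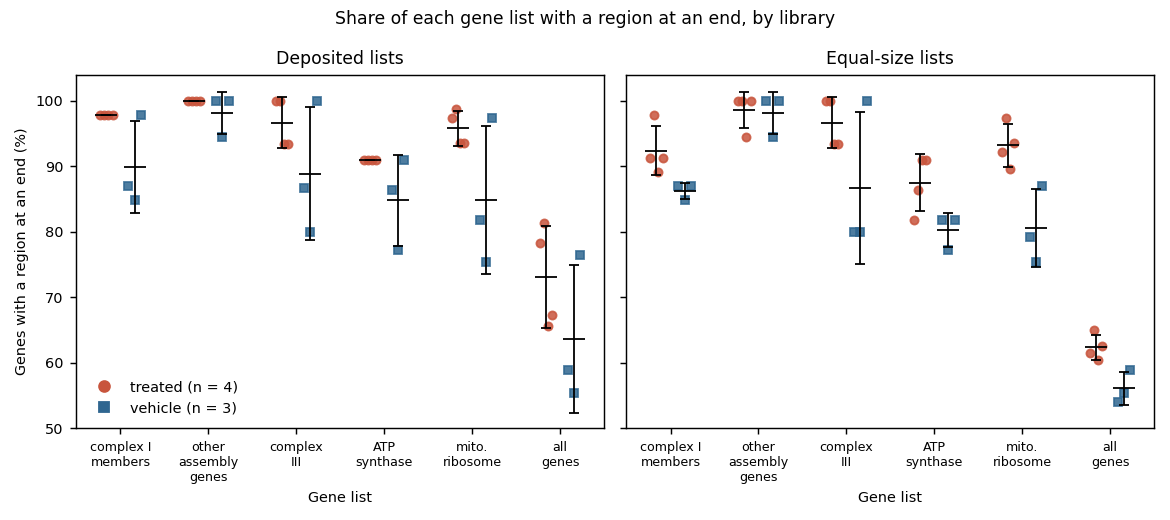
Share of each gene list with a region within 1000 bp of an end (%, y axis), by library, in the deposited (left) and equal-size lists (right). Circles are the 4 treated and squares the 3 vehicle libraries, and bars give mean and SD. The y axis starts at 50%. Complex I members lie at 97.8% in all 4 treated deposited lists, and their equal-size shares differ between treatments about as much as those of all genes.

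Lists of like length could differ in their counts. Treated 9, with 53063 regions, had 45 open members, and vehicle 6, with 53398 regions, had 40. Over all genes the same pair of lists had 13449 and 11759 open genes. Among the 3 longest lists, treated 6, treated 7 and vehicle 8, the difference was 0.0 members as deposited and 3.5 at equal size. Among the 4 shortest lists it was 5.5 as deposited and 2.0 at equal size. Region width moved with these counts: the median width of the regions at open members was 1221, 1906, 848 and 1104 bp in the treated libraries and 786.5, 593 and 1267 bp in the vehicle libraries. The part of list length and of width in the difference was not tested.

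Only 8 members were not open in all 7 deposited lists. Of the 45 members open in at least 1 deposited list, 7 (15.6%) were open in a larger share of treated than of vehicle libraries and 0 in a larger share of vehicle libraries, where the background was 35% and 5.73%. At equal size the counts were 8 (17.8%) and 1, against a background of 27.5% and 6.48%. Both shares of treated-side members lay below the background, beside the high number of members open everywhere, which cannot vary. Among genes open in 1 to 6 deposited lists, 7 of 7 members and 5880 of 6842 genes had the larger treated share. At equal size these were 8 of 9 members and 3860 of 4771 genes. No member was open in all treated and no vehicle libraries, a pattern shown by 0.131% of all genes as deposited and 0.818% at equal size. The reverse pattern was shown by 0 members, against 0% and 0.0213% of all genes. Fisher's exact test on presence, two-sided with Benjamini-Hochberg adjustment over all genes, called 0 genes in either kind of list. Its smallest possible p with 4 against 3 libraries is 0.0286, which 22 genes reached as deposited and 118 at equal size, none of them a member.

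**Figure D2:**
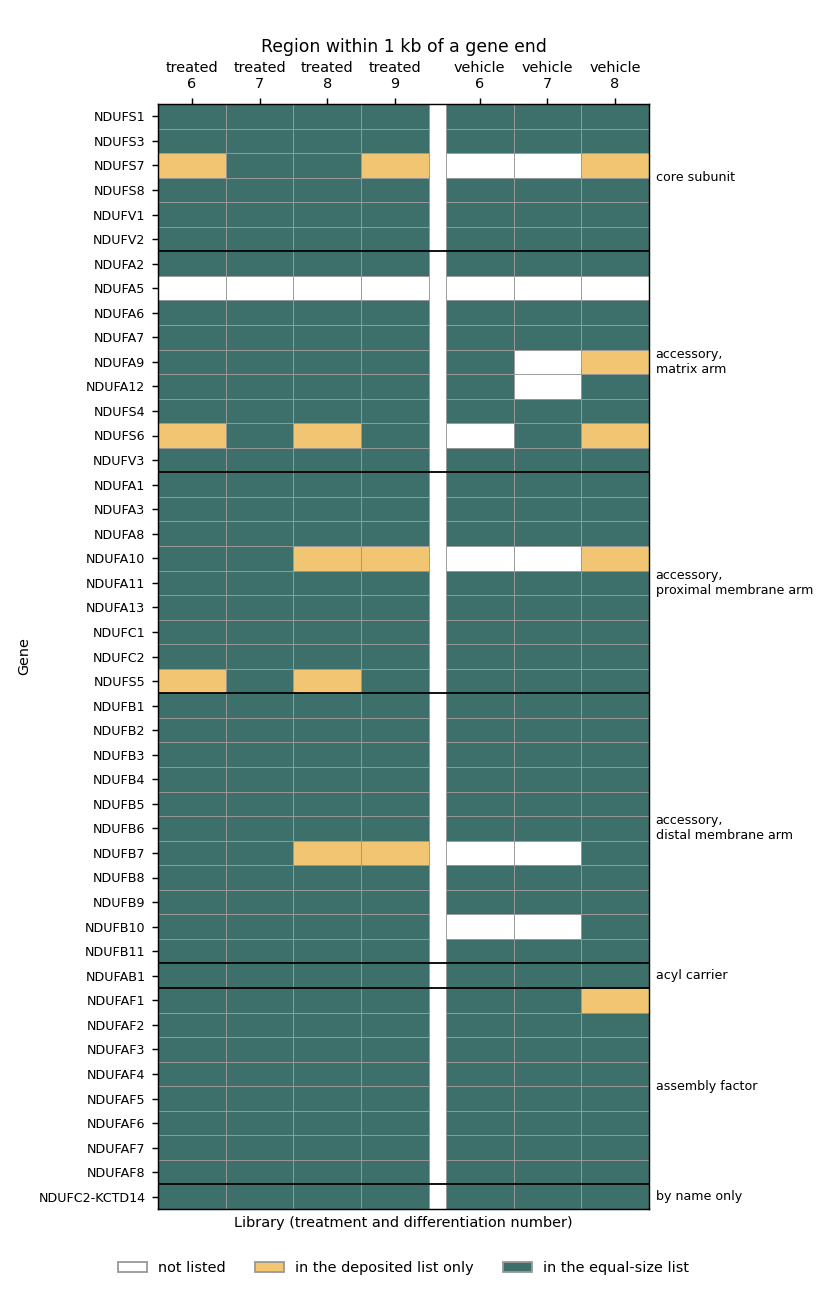
Presence of a region within 1000 bp of an end for the complex I genes (rows, grouped by role, 1 gene not shown) in each library (columns). Dark cells are in the equal-size list, yellow cells only in the deposited list and white cells in neither. White cells fall in the vehicle 6 and vehicle 7 columns, apart from the empty NDUFA5 row.

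By role, the core and accessory subunits held all 7 genes that varied in the deposited lists. The 8 assembly factors NDUFAF1 to NDUFAF8 were open in all 7 deposited lists. At equal size they were open in every treated library, and only NDUFAF1 was missing, in vehicle 8. The acyl carrier gene NDUFAB1, whose product serves mitochondrial fatty acid synthesis and also sits in complex I, was open in all 7 lists of both kinds. Of the 7 nuclear core subunits, 6 were open everywhere and NDUFS7 varied. The matrix arm had 5 of 9 members open in all deposited lists, the proximal membrane arm 8 of 9 and the distal membrane arm 9 of 11.

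Among core subunits, NDUFS1, an iron–sulfur subunit of the NADH-oxidizing module and one of the markers of the complex, was open everywhere. Its strongest region had fold enrichments of 23.3, 16.4, 11.6 and 7.60 in treated 6, 7, 8 and 9 and of 8.71, 9.31 and 27.9 in vehicle 6, 7 and 8. The highest and the lowest of these lie in different treatments and the groups overlap. Fold enrichment also follows the list: the longest 3 lists gave the 3 highest values, so folds are compared here only with the limit of their own list. NDUFS7 carries the terminal iron–sulfur cluster, from which electrons pass to ubiquinone. Its region had folds of 6.60, 7.72, 4.96 and 4.40 in treated 6, 7, 8 and 9 and of 4.93 in vehicle 8, and it was not listed in vehicle 6 and 7. Only treated 7 and treated 8 held it in the equal-size list, so NDUFS7 was a weak region wherever it was found.

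The matrix arm held the other marker, NDUFA9, a nucleotide-binding subunit near the ubiquinone site. Its region had folds of 9.12, 10.2, 5.51 and 4.40 in treated 6, 7, 8 and 9 and of 7.37 and 6.57 in vehicle 6 and 8, and was not listed in vehicle 7. At equal size NDUFA9 was open in 4 of 4 treated libraries and, of the vehicle libraries, in vehicle 6 alone. In treated 9 its fold of 4.40 equalled the limit of the equal-size list. NDUFS7 and NDUFA10 had the same fold in treated 9 and fell outside that list, so the order of ties decided. NDUFA12 takes the place that the assembly factor NDUFAF2 occupies in the nascent complex. Its folds were 24.5, 19.3, 9.36 and 10.4 in treated 6, 7, 8 and 9 and 6.70 and 22.2 in vehicle 6 and 8, and no region was listed in vehicle 7. This was the strongest of the 7 variable regions in the treated libraries, and it lay in the equal-size list of each library that had it. NDUFS6, a zinc-binding subunit that joins late in assembly, had folds of 7.55, 9.01, 4.41 and 5.20 in treated 6, 7, 8 and 9 and of 3.72 and 7.40 in vehicle 7 and 8. It was the only member missing in vehicle 6 alone. MRPL36 starts 1570 bp from NDUFS6, and in treated 7 and treated 8 the summit lay at -1441 and -1018 bp from the NDUFS6 start, upstream of it on the MRPL36 side.

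In the membrane arm, 3 accessory subunits were missing in exactly vehicle 6 and vehicle 7. NDUFA10, a kinase-like subunit of the proximal arm, had folds of 9.12, 9.44, 4.41 and 4.40 in treated 6, 7, 8 and 9 and of 8.63 in vehicle 8. NDUFB7, a disulfide-bonded subunit on the intermembrane face, had folds of 12.3, 7.15, 3.85 and 4.00 in the treated libraries and of 18.5 in vehicle 8. NDUFB10, another disulfide-bonded subunit of the distal arm, had folds of 12.6, 6.58, 4.41 and 5.60 in the treated libraries and of 10.7 in vehicle 8. Against the limit of its own list, vehicle 8 held NDUFB7 and NDUFB10 in the equal-size list and NDUFA10 only in the deposited list. Vehicle 8 thus differed from vehicle 6 and 7 in presence for all 3 genes. In vehicle 8 the NDUFB10 summit lay 1364 bp downstream of the start, while in the treated libraries it lay within 97 bp of it. Vehicle 7 had a region of its equal-size list at chr16:1960779-1960964, inside NDUFB10, with a fold of 4.34. That region covers the position of the vehicle 8 summit but lies outside the windows around the gene ends, so vehicle 7 was not counted as open. The end of RPS2, a ribosomal protein gene, lies 83 bp from an end of NDUFB10. In the other direction stood NDUFS5, also disulfide-bonded, with folds of 7.86, 9.44, 3.30 and 8.40 in the treated libraries and of 5.36, 4.96 and 9.86 in the vehicle libraries. It was open in all 7 deposited lists and, at equal size, in 2 of 4 treated and 3 of 3 vehicle libraries.

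**Figure D3:**
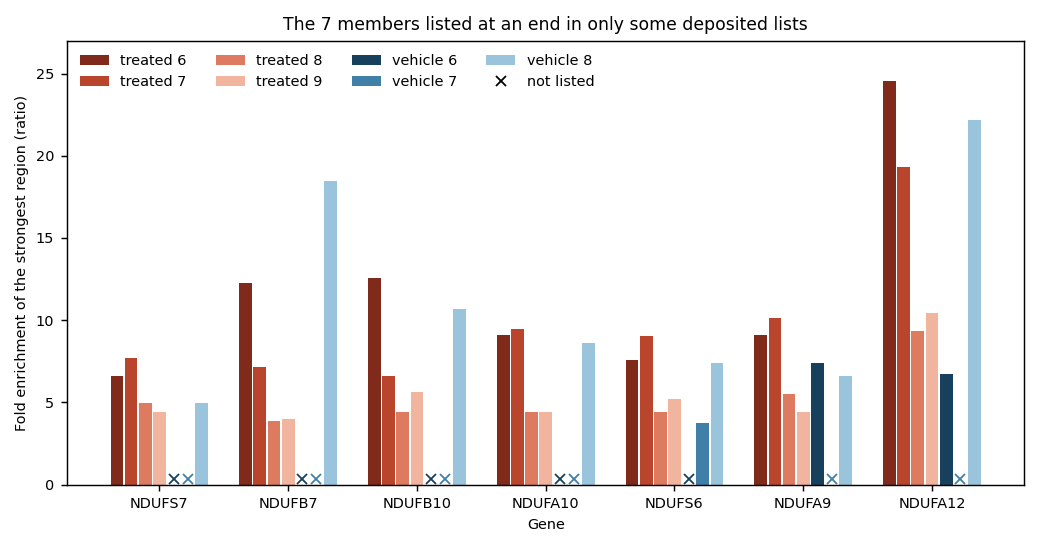
Fold enrichment (ratio, y axis, from 0) of the strongest region at an end of the 7 genes open in 1 to 6 deposited lists, 1 bar per library. Crosses mark libraries with no region: vehicle 6 and 7 for NDUFS7, NDUFB7, NDUFB10 and NDUFA10, vehicle 6 for NDUFS6, and vehicle 7 for NDUFA9 and NDUFA12.

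Promoter sequences of the 4 genes missing in both vehicle 6 and vehicle 7 are shown because their presence in the deposited lists differs most between the treatments. At equal size the order is another: the treated minus vehicle share was 0.667 for NDUFB10 and NDUFA9, 0.5 for NDUFS7 and NDUFA10 and 0.167 for NDUFB7. These shares depend on ties. NDUFB10 and NDUFA10 in treated 8, and NDUFA9, NDUFS7 and NDUFA10 in treated 9, had folds equal to the limit of the list. Each sequence is the 250 bases before the annotated start, 5′ to 3′ on the strand of the gene given in brackets, from RefSeq on GRCh38.p14. Capitals mark matches on either strand to the motifs searched.
NDUFS7 chr19:1383657-1383906 (+): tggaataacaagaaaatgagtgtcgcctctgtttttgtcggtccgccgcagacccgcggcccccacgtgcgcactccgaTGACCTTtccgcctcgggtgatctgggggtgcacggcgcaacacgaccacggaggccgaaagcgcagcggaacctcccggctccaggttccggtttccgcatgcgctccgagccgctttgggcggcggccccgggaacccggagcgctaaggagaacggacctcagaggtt
NDUFA10 chr2:240025343-240025592 (-): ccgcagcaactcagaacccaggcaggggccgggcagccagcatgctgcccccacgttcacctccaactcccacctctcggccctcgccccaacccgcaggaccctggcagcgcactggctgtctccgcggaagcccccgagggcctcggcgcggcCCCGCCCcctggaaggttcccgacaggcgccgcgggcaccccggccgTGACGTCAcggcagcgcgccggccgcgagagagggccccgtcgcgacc
NDUFB7 chr19:14572067-14572316 (-): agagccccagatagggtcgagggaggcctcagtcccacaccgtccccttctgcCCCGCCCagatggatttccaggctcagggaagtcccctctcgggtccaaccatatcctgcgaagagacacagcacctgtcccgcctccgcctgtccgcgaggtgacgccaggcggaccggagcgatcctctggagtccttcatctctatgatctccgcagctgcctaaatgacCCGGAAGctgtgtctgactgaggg
NDUFB10 chr16:1959288-1959537 (+): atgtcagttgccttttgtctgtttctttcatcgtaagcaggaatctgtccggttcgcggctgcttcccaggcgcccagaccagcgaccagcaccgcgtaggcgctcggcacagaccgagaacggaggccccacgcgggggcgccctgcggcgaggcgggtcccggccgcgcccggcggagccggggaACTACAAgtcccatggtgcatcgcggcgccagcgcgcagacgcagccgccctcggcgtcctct
The capitals are TGACCTT in NDUFS7, an ERR half-site read on the other strand, and CCCGCCC (SP) with TGACGTCA (CRE) in NDUFA10. NDUFB7 shows CCCGCCC (SP) and CCGGAAG (ETS), and NDUFB10 shows ACTACAA. No motif was common to all 4, and a match is a description of letters only. Over 300 bases, from 250 before to 50 after the start, GC content was 66.0% in NDUFS7, 74.3% in NDUFA10, 63.0% in NDUFB7 and 70.7% in NDUFB10. The median was 60.8% over the 40 members with an annotated start and 62.7% over 15813 protein-coding genes.

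Promoter GC moved with the difference between treatments over all genes. With genes split by promoter GC into 5 classes of equal size, from lowest to highest, the share open at equal size was higher in treated than in vehicle libraries by 1.96, 4.71, 5.96, 6.78 and 11.0 percentage points. In the deposited lists the same differences were 7.76, 8.35, 8.63, 8.39 and 12.4 percentage points. NDUFA10 lies in the highest class, NDUFB10 and NDUFS7 in the next, and NDUFB7 in the middle one. The other variable members had lower GC, 50.7% in NDUFA9, which lies in the lowest class, 58.0% in NDUFA12 and 60.3% in NDUFS6. Median GC was 63.0% for the 7 variable members and 60.8% for 32 members open in all 7 deposited lists. The highest GC among members, 74.7%, was that of NDUFV2, which was open in all 7. The part of GC content in the presence of these genes was not tested.

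**Figure D4:**
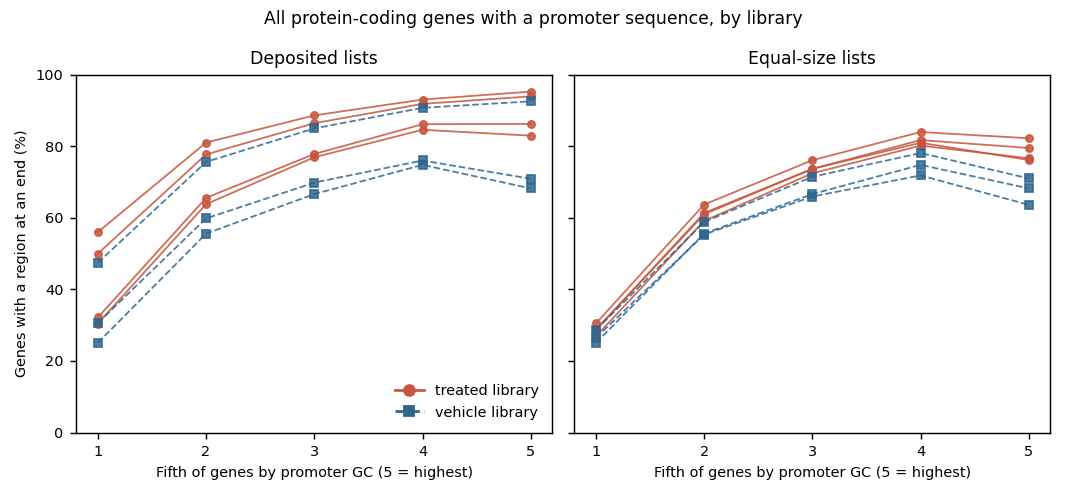
Share of all protein-coding genes with a region at an end (%, y axis) by class of promoter GC (x axis, 5 classes of equal size, 5 is highest), in the deposited (left) and equal-size lists (right). Each line is a library, solid with circles if treated and dashed with squares if vehicle. At equal size the lines separate most in the highest class, by 11.0 percentage points on average.

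NDUFA5, a small subunit of the matrix arm, was open at neither end in any library. The table places the gene at chr7:123536997-123601651 on the minus strand of GRCh38.p14. Within it a region near chr7:123557136-123558350 (the extent in treated 6) was found in all 7 libraries and in all equal-size lists, with folds of 22.6, 20.0, 12.1 and 11.2 in treated 6, 7, 8 and 9. In vehicle 6, 7 and 8 its folds were 14.7, 8.07 and 25.5. The region thus lay inside the span annotated for the gene and away from both annotated ends, and it was described after its values were seen. With windows of 2500 bp, NDUFA5 was open in all 7 deposited lists, without a difference between treatments. The rule reads only the outer ends of the annotated span, so "not open" says nothing of starts inside it.

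The strength of the regions was compared through ranks. Among the 9946 genes open in all 7 deposited lists, each gene was ranked within each library by its highest fold enrichment, and the rank was written as a percentile with 100 the strongest. The 38 members among them were not stronger than other genes: 16 (42.1%) had a mean percentile above 50, where the background was 48.6%, and the median was 46.3 against 48.7 over all genes. The 8 variable or unlisted members cannot enter this comparison. Ordered by mean percentile, the strongest 3 were NDUFB2 (91.8), NDUFAF5 (91.5) and NDUFAF2 (90.3), and the weakest were NDUFS5 (8.32), NDUFAF1 (8.73) and NDUFA3 (13.9).

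NDUFAF5, which hydroxylates the core subunit NDUFS7 during assembly, lay at percentiles 94.7, 92.2, 82.3 and 90.2 in treated 6, 7, 8 and 9 and at 95.0, 93.0 and 93.4 in vehicle 6, 7 and 8. NDUFAF2, a paralog of NDUFA12, lay at 90.1, 90.5, 88.4 and 86.4 in the treated and at 94.0, 90.2 and 92.5 in the vehicle libraries. Both were thus strong in every library, with overlapping groups. Their starts face away from those of another gene, 109 bp from ESF1 for NDUFAF5 and 135 bp from ERCC8 for NDUFAF2, so each region lies at a pair of starts and cannot be assigned to one of them. Such starts, within 1000 bp and facing away from another protein-coding gene, were found for 13 members, and 29 members had some end of another protein-coding gene within that distance.

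At the weak end, NDUFA3, a small subunit of the proximal membrane arm, lay at percentiles 18.0, 19.7, 7.73 and 5.0 in the treated and 14.6, 21.6 and 11.0 in the vehicle libraries. NDUFAF1, a factor of the early membrane-arm intermediate, lay at 7.27, 2.77, 36.1 and 1.77 in the treated and 9.56, 2.47 and 1.13 in the vehicle libraries. NDUFS5 lay at 0.694, 4.74, 0.0754 and 32.0 in the treated and 9.56, 7.14 and 4.01 in the vehicle libraries. For NDUFAF1 and NDUFS5 a single treated library, treated 8 and treated 9, stood far above the rest, and the groups overlap for all 3 genes.

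**Figure D5:**
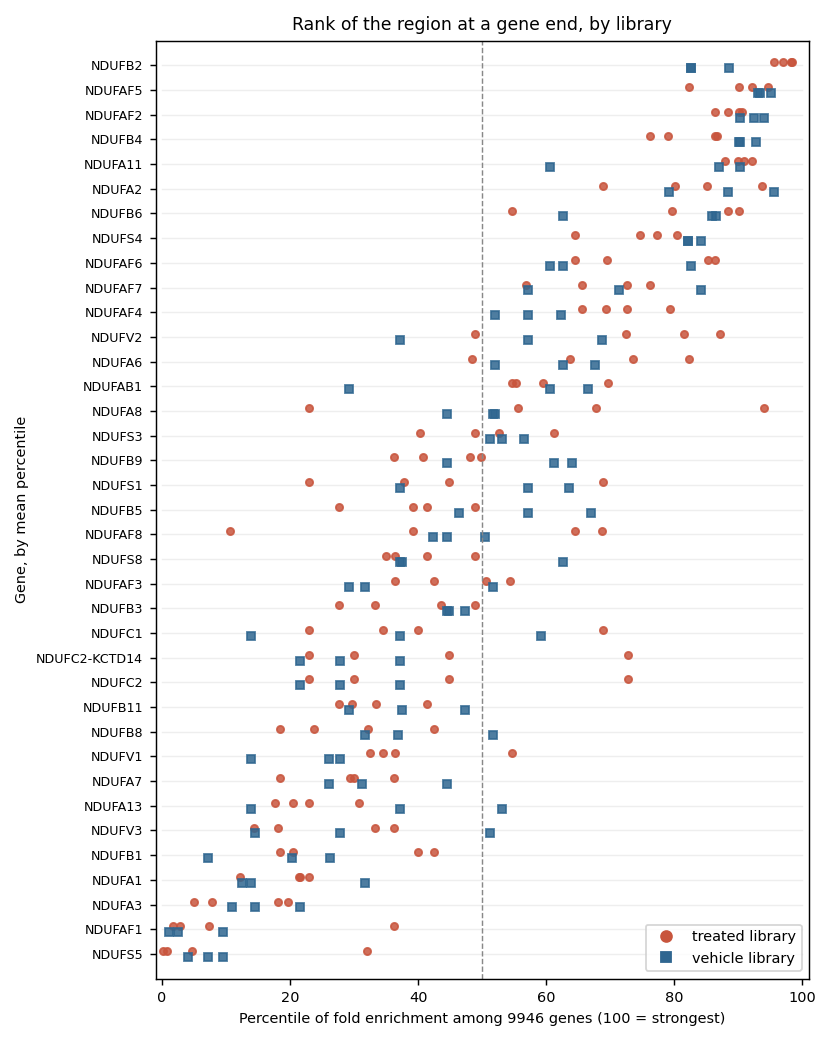
Percentile of fold enrichment among 9946 genes (x axis, 100 is strongest) of the complex I genes open in all 7 deposited lists, ordered by mean percentile (y axis, 1 gene not shown). Circles are treated and squares vehicle libraries. The 4 NDUFB2 circles lie above its 3 squares, and most other genes overlap.

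No gene differed in rank between the treatments past the threshold. In limma's test on the normal scores of the ranks, with Benjamini-Hochberg adjustment over all 9946 genes, 0 genes passed an adjusted p of 0.05 in either direction, a background of 0%. At an unadjusted p under 0.05 stood 787 genes, or 7.91%, and 1 member, NDUFB2. In simulated data with 200 changed genes among 9946, the test recovered none at shifts of 0.5 or 1 normal-score unit and 94% at a shift of 2, so a change of the size measured for members was not detectable with these libraries. All treated libraries lay above all vehicle libraries for 3 members (7.89%), NDUFB2, NDUFV1 and NDUFAF4, against a background of 3.94%. They lay below for 2 members (5.26%), NDUFB4 and NDUFS4, against a background of 4.58%.

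NDUFB2, a subunit of the distal membrane arm, had the lowest p of the members. It lay at percentiles 95.6, 98.4, 98.2 and 96.9 in treated 6, 7, 8 and 9 and at 82.6, 88.5 and 82.6 in vehicle 6, 7 and 8. Every treated library stood above every vehicle library, and the means were 97.3 ± 1.29 and 84.6 ± 3.41. The difference was 0.93 normal-score units with a standard error of 0.25, and limma gave an unadjusted p of 0.0017 and an adjusted p of 0.358. Across the alternative settings the difference kept its direction, with adjusted p from 0.358 to 0.785.

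In the opposite direction, NDUFB4, also of the distal membrane arm, lay at 86.7, 79.1, 76.2 and 86.4 in the treated and at 90.1, 90.2 and 92.7 in the vehicle libraries. Every vehicle library was above every treated library, by 0.42 normal-score units in the mean (limma adjusted p = 0.707). NDUFB5, of the same arm, lay at 39.1, 41.3, 48.9 and 27.6 against 67.1, 57.2 and 46.3, with overlap between treated 8 and vehicle 8 (adjusted p = 0.685). An end of MRPL47 lies 148 bp from an end of NDUFB5. Both genes had the same mean percentiles, 39.2 treated and 56.8 vehicle, so the region cannot be assigned to one of them. Among core subunits, NDUFV1, which binds NADH and the flavin, lay at 34.6, 32.4, 54.7 and 36.4 against 26.1, 13.9 and 27.8, without overlap (adjusted p = 0.667). NDUFV2, its iron–sulfur partner, lay at 72.4, 87.1, 48.9 and 81.5 against 37.1, 57.2 and 68.7, with overlap (adjusted p = 0.687). In treated 7 the NDUFV2 value comes from a region that reaches the window at the far end of the gene, with its summit 33890 bp downstream of the start and beyond the gene, which is 31643 bp long. Subunits of one arm thus differed in opposite directions, and none of these differences passed the test.

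The upstream sequences of the 2 distal-arm genes that did not overlap between treatments are printed because these strongly accessible promoters ranked in opposite directions. They are the 250 bases before the start, taken and marked as for the 4 promoters printed earlier.
NDUFB2 chr7:140696458-140696707 (+): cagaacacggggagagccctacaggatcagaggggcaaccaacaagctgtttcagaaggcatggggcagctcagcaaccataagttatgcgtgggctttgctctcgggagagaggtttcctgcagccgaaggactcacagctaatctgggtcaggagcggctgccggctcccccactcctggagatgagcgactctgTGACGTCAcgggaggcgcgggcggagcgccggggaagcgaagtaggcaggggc
NDUFB4 chr3:120596086-120596335 (+): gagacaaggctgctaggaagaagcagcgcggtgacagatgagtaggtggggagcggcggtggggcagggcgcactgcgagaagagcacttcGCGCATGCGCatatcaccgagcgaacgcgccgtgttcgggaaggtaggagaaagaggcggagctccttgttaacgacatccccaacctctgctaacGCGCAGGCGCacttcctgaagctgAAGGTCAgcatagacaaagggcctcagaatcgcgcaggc
NDUFB2 holds the palindromic CRE letters TGACGTCA once, at -53 from the start. NDUFB4 holds the NRF1 letters at -159, -63 and -8, the last running past the printed bases, and the ERR letters AAGGTCA at -39. The start of the antisense gene NDUFB2-AS1 lies 369 bp from that of NDUFB2.

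The members' promoters shared some letters that the choice of genes did not use. Of the 9 motifs searched on both strands in the 300-base windows of 40 members, the YY1 letters AANATGGC were in 12 (30%), against 7.91% of 15813 promoters. The NRF1 motif was in 7 (17.5%) against 8.59%, and the ERR letters AAGGTCA in 4 (10.0%) against 3.13%. YY1, NRF1 and the estrogen-related receptors are known regulators of nuclear genes for mitochondrial proteins. The SP letters GGGCGGG were in 25.0% against 44.4% and CCAAT in 27.5% against 36.3%. The ETS letters CCGGAAG were in 15.0% against 14.2%, and the CRE letters TGACGTCA in 5.0% against 2.59%. TGATGNAA, searched for ATF4 and C/EBP, was in 2.5% of members and 2.54% of promoters, and ACTACAA in 2.5% and 3.15%. Among the 8310 promoters of genes open in all 7 deposited lists, YY1 letters were in 10.1%, NRF1 in 12.3% and ERR in 2.19%. In the same promoters SP letters were in 54.6%, CCAAT in 39.2%, ETS in 19.8% and CRE in 3.47%. There TGATGNAA was in 1.58% and ACTACAA in 3.89%. These shares are given without a test.

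Of the 12 members with YY1 letters, 10 held them within 50 bases after the start, and in 9 of the 12 they lay on the strand of the gene. Over all promoters 680 of 1349 matches (50.4%) lay within those 50 bases. The letters AANATGGC contain ATG, which is also the start codon of translation. Whether a match is a YY1 site or only such a codon was not tested. The sites of 6 subunits of the matrix arm are printed, 3 of them open everywhere and 3 not, with the YY1 letters in capitals and up to 8 bases on each side, on the strand of the gene.
NDUFS1 chr2:206159413-206159436 (-): ccgaggccGCCATATTgaataagc
NDUFS3 chr11:47579081-47579104 (+): atctgagtAACATGGCggcggcgg
NDUFS7 chr19:1383916-1383939 (+): ccgaggccAAGATGGCggtgctgt
NDUFS6 chr5:1801407-1801430 (+): agcggcgcAAAATGGCggcggcga
NDUFA9 chr12:4649116-4649139 (+): tgtgggaaAAGATGGCggctgccg
NDUFV2 chr18:9102733-9102748 (+): tgtggcccGCCATGTT
In NDUFS1 and NDUFV2 the letters read on the other strand, and in NDUFV2 the window ends with them. NDUFS7, NDUFS6 and NDUFA9 are among the genes missing from a vehicle list, while NDUFS1, NDUFS3 and NDUFV2 were open in all 7. The letters were thus found on both sides. The members with YY1 letters that are not printed were all open in all 7 deposited lists. They are NDUFS4, NDUFS8, NDUFA6, NDUFA7, NDUFA1 and NDUFA3. Most summits lay near the starts: of 39 open members with an annotated start, 27, 28, 28 and 29 had the summit within 250 bp of it in treated 6, 7, 8 and 9. In vehicle 8 it was 26 of 39, and in vehicle 6 and 7 it was 24 of 34 and 25 of 33.

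Most assembly genes outside the NDUF names were open in every library. Of 18 complex I assembly genes with other names, such as ACAD9, TMEM126B and TIMMDC1, 17 were open in all 7 deposited lists. The exception was DMAC1, open in 4 of 4 treated and 2 of 3 vehicle libraries. For complex III, the target of antimycin A, 14.5 ± 0.577 of 15 genes were open at equal size in the treated and 13.0 ± 1.73 in the vehicle libraries. For the ATP synthase, the target of oligomycin, the counts were 19.2 ± 0.957 and 17.7 ± 0.577 of 22. For the mitochondrial ribosome they were 71.8 ± 2.50 and 62.0 ± 4.58 of 77, with 21 genes open in a larger share of treated libraries, 28.0% of the 75 open in at least 1. Each list had the higher mean in the treated libraries, as all genes did, and no list was tested against another.

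Lists of markers of other cell types had higher mean counts in the treated libraries at equal size, as did the mean over all genes. Of 5 mesenchymal markers 3.75 ± 0.5 were open at equal size in the treated and 1.67 ± 0.577 in the vehicle libraries. Summed over the list, 3 to 4 were open per treated library and 1 to 2 per vehicle library, and COL1A2 was open in none. Of 5 progenitor markers 4.5 ± 0.577 and 3.00 ± 1.73 were open, with 4 to 5 against 2 to 5 per library. Among the vehicle libraries, all 5 were open in vehicle 8. Of 6 glial markers 2.50 ± 0.577 and 1.67 ± 0.577 were open, and GFAP, SOX10 and S100B were open in none. The part of these marker lists in the counts of complex I genes was not tested. In these bulk libraries more cells of a type and more open chromatin per cell cannot be told apart.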

How the data were processed

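ATAC-seq was measured in 4 treated and 3 vehicle libraries, grouped by their labels. The submitters' processing notes name FastQC, Bowtie2, Picard and hg38. Per the file headers, MACS2 called the peaks of each library by itself. The sources used here do not give its settings. For each peak the authors deposited a score (not used), a fold enrichment (ratio), and −log10 p-values and −log10 q-values. Read depth is unknown, so precision rests on the number of libraries.

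Chromosomes 1 to 22 and X were used, which left out 29 to 54 peaks per library. A gene was open when any base of a peak lay within 1000 bp of either end in RefSeq GRCh38.p14. Equal-size lists held the 32828 peaks of highest fold, and 1133 to 9516 peaks per library tied at that limit. Ties were ordered by −log10 p, then by width and position. Ranking by −log10 p chose the same peaks. Presence was tested by Fisher's exact test, and ranks of 9946 genes as normal scores by limma 3.58.1 (R 4.3.3), both with Benjamini-Hochberg adjustment over all genes. Other steps used Python 3.11.15, pandas 2.3.3 and scipy 1.17.1. Overlaps were checked against bedtools 2.31.1, and the rank test was tested on simulated data. Starts, strands and promoter sequences, for 40 of 46 members, came from a RefSeq table of the same build. The values of 1 member are not reported here, though it is counted.

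The titles give libraries of both treatments the same differentiation numbers. Their deviations from the group means correlated by -0.10 (6), -0.004 (7) and -0.04 (8) across genes, and the differentiation entered as a block in an alternative. Values were printed for both markers, for members not open in all deposited lists or differing by at least 0.5 in share at equal size, for the 3 strongest and 3 weakest by rank, and for the 5 of lowest p. The members, lists and tests were chosen with earlier results of these data known. The labels describe batches of cells of 1 line, and both treatments have libraries numbered 6, 7 and 8. The main tests took all libraries as independent, so their p-values measure the spread between libraries within a treatment.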

Additional observations from a re-analysis of the deposited data

Results flagged for a closer look

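In the treated group, the rank percentile of NDUFAF1 had 1 library far from the others: treated 8 lay at 36.1, where treated 6, 7 and 9 lay at 7.27, 2.77 and 1.77. The percentile of NDUFS5 likewise had treated 9 at 32.0, where treated 6, 7 and 8 lay at 0.694, 4.74 and 0.0754. Chance marks about 1 in 20 groups of 4 in this way, and both genes belong to the 3 weakest complex I genes by rank.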

How the results depend on the processing

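With differentiation as a block, pairing libraries 6, 7 and 8, the difference in open members was 3.0 at equal size and 3.67 as deposited, and the rank test called 0 genes. The block changed no other call. Leaving out each library in turn gave differences of 2.0 to 3.33 members at equal size and 2.5 to 5.5 as deposited. It gave 6 to 8 members with a larger treated share and 1 each time with a larger vehicle share. The rank test then called 0 to 8 genes, the 8 without vehicle 8, and 0 members. In the 3 longest deposited lists the difference was 0.0. Members with a larger vehicle share at equal size numbered 2 with 2500 bp windows, 5 with the summit in the window and 2 with lists of 16414 regions, against 1. The rank test called 1 gene, not a member, with genes present in at least 5 of 7 lists. With −log10 q of at least 5 the deposited counts were 45, 45, 37 and 40 in treated 6, 7, 8 and 9 and 38, 31 and 45 in vehicle 6, 7 and 8. Single genes changed direction: with lists of 16414 regions the treated minus vehicle share was -0.0833 for NDUFA9, -0.333 for NDUFB7 and 0.25 for NDUFS5. It was -0.167 for NDUFA10 with 2500 bp windows, -0.0833 for NDUFS6 with summits, and -0.167 for NDUFA9 with −log10 q of at least 5. The cause was not tested for any of these. With lists of 16414 regions the shares of NDUFA10, NDUFB10 and NDUFS7 were equal between treatments, and with −log10 q of at least 5 those of NDUFA10, NDUFB7 and NDUFS7 differed by 0.167. Of the 80 alternative values of the main counts 74 stayed close to the value given. Some of the 74 could not have moved. Ranking by −log10 p chose the same peaks, and all treated deposited counts were equal, so leaving 1 out changed nothing. The number of libraries limits both tests.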
